A study of Mus musculus with 13 samples.

Results

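The genes described here code for 9 membrane transporters that carry organic ions, bile pigments and drugs through the hepatocyte, out of 53465 genes in a table of liver read counts. They were chosen by name: the uptake carriers Slco1a1, Slco1a4 and Slco1b2, the canalicular efflux pumps Abcc2, Abcb1a, Abcb4 and Abcg2, and the sinusoidal efflux pumps Abcc3 and Abcc4. All 9 were found in the table by gene symbol and all 9 were among the 13545 genes with enough counts to be tested. The livers came from 6 WT and 7 Nod2-/- mice of the BALB/c strain, with 1 RNA library per mouse, and the question was how liver gene expression differs between the genotypes. Nod2 codes for an intracellular receptor of bacterial peptidoglycan fragments, and in the Nod2-/- mice it is deleted in every cell. Mice of both genotypes received DMBA, a polycyclic aromatic carcinogen, on the skin as pups and were then kept on a high fat diet. The sample labels give 30 weeks for the diet and for the age, and the study's methods give a slightly longer time on the diet. According to the study all mice of this experiment were male, and WT and Nod2-/- mice were kept in the same room, but were bred as separate lines and were not littermates. The labels call every liver cancerous and do not say which pieces held tumor. In the study, however, only a minority of male WT mice but most male Nod2-/- mice had liver tumors under this regimen. The Nod2-/- mice also gained more weight, so genotype goes together with tumor frequency and weight here. There was no group without DMBA or on chow, so the values below compare genotypes under this regimen only.

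Hepatocytes take up bile acids, bilirubin, steroid conjugates and many drugs from the blood across their sinusoidal membrane, largely through the organic anion transporting polypeptides that the Slco genes encode. They modify these compounds and pump them, with ATP, across the canalicular membrane into bile, or back across the sinusoidal membrane into the blood. Several of these genes are known targets of the xenobiotic receptors CAR and PXR and of the hepatocyte nuclear factors, and in mice Slco1a1 is known as a gene with a higher level in male than in female liver.

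The libraries held 14886273 to 20579984 counts (WT) and 13824780 to 19391431 (Nod2-/-). Normalized counts are the deposited counts scaled to a common library size of 16581214. Fold changes are Nod2-/- against WT on the log2 scale, with the standard error (SE) of edgeR's quasi-likelihood fit and a p-value adjusted over all genes tested. By that test 157 genes passed 5% FDR, 88 higher and 69 lower in Nod2-/- mice, and the median log2 fold change of all genes tested was 0.02. Of 14 hepatocyte markers 13 were found and tested, none passed 5% FDR by edgeR, 2 were higher and 2 lower at an unadjusted p under 0.05, and their median log2 fold change was -0.03. Apoa1 was at 0.53 (SE 0.23) and Hpx, which DESeq2 called, at 1.06 (SE 0.31), and both DESeq2 and voomWithQualityWeights called Cyp2e1 (-0.94, SE 0.27). Alb, the gene of serum albumin, had at least 859409 normalized counts in each WT mouse and at least 896543 in each Nod2-/- mouse. In bulk tissue, fewer cells of a type and less RNA per cell cannot be told apart.

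None of the 9 transporter genes passed 5% FDR by edgeR, where 1.16% of all genes tested did, 0.509% in the direction of a lower level in Nod2-/- mice. At an unadjusted p under 0.05, 4 of the 9 were lower in Nod2-/- mice (Abcc3, Slco1a1, Abcg2 and Slco1b2) and 0 were higher, where 10.2% of all genes were lower and 12.9% higher at that level. The log2 fold change was below 0 for 7 of the 9, compared with 47.7% of all genes tested, and its median over the 9 was -0.38. No transporter gene had groups without overlap, where 1.44% of all genes tested did. By DESeq2 and by limma's voomWithQualityWeights, 1 of the 9, Abcc3, passed 5% FDR. These methods called 7.29% and 6.22% of the genes they tested. With 1 surrogate variable added to the edgeR fit, the log2 fold changes were closer to 0 for Slco1a1 (-0.46), Slco1b2 (-0.34), Abcg2 (-0.33), Abcb4 (-0.13), Abcc3 (-0.66) and Abcc4 (0.09) than the values given below. Abcc2 (-0.43) was farther from 0, Slco1a4 (0.51) turned sign and Abcb1a was at 0.0. None of the 9 passed the test.

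**Figure D1:**
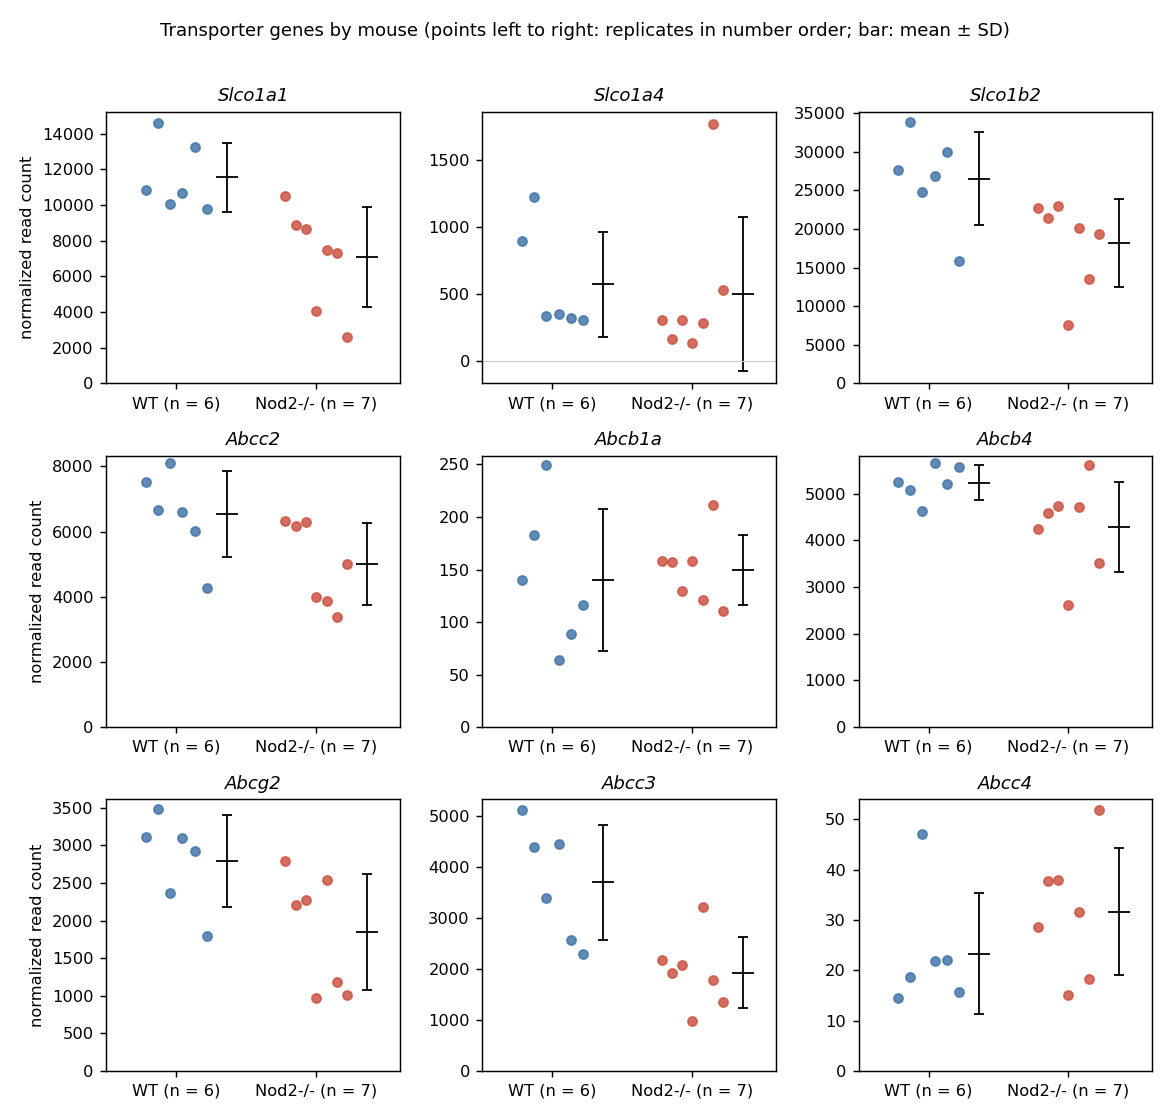
Normalized read counts of the 9 transporter genes, 1 panel per gene with its own linear axis from 0, 1 point per mouse (6 WT in blue, 7 Nod2-/- in red) and the mean with its SD in black. The groups overlap in every panel, 6 of 7 Nod2-/- mice lie below the lowest WT mouse for Slco1a1 and for Abcc3, and 1 Nod2-/- mouse stands high for Slco1a4.

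The 3 uptake genes are neighbours on chromosome 6 and code for related carriers of bile acids, steroid sulfates and drugs, yet their levels were far apart. The sequences shown are the 250 bases before the RefSeq transcription start of each, on build GRCm38.p6 and written 5′ to 3′ on the gene's own strand, because the neighbouring paralogs had such unequal levels. Capitals mark matches to GTTAAT, a stretch of the HNF1 recognition sequence, and to TTCNNNGAA, the sequence bound by STAT factors, both searched on both strands.
Slco1b2, chr6:141629268-141629517, plus strand: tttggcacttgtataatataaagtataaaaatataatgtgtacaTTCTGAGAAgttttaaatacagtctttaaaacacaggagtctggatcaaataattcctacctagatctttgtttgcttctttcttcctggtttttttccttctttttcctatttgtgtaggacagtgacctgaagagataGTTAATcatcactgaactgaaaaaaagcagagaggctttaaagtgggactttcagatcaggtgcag
Slco1a1, chr6:141946963-141947212, minus strand: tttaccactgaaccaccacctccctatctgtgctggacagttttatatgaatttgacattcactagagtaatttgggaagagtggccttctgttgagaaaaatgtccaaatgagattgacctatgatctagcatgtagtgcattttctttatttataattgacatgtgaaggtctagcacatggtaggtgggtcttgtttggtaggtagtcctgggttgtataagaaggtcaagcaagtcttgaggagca
Slco1a4, chr6:141856221-141856470, minus strand: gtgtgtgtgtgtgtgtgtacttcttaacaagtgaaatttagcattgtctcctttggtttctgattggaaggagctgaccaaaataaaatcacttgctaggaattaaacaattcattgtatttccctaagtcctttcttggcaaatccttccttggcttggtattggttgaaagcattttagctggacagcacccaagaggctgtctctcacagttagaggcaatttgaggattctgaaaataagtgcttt

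The Slco1b2 window held 1 match to GTTAAT, starting 66 bases before the transcription start, and 1 match to TTCNNNGAA, starting 206 bases before it. Neither motif occurred in the Slco1a1 or the Slco1a4 window. Of 32851 such windows in the RefSeq table, 6.43% held GTTAAT and 7.02% held TTCNNNGAA. AGGTCA, the core to which many nuclear receptors bind and not capitalized here, matched 2 times in the Slco1a1 window, 1 time in the Slco1b2 window and 0 times in the Slco1a4 window, and 14.0% of all windows held it. The table had windows for 8 of the 9 genes. A match is a description of the letters, and no binding was measured.

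Slco1b2 (ENSMUSG00000030236.10, chromosome 6, 141629518 to 141686646, plus strand) encodes the main liver-specific organic anion carrier of the mouse. Its normalized counts were 15895 at the lowest, 27221 at the median and 33813 at the highest in WT mice, and 7551, 20084 and 22939 in Nod2-/- mice. Of 6 WT mice, 5 were above the highest Nod2-/- mouse, and the exception, WT replicate 6, lay among the Nod2-/- mice. The means were 26491 ± 6037 (SD, n = 6) and 18224 ± 5688 (SD, n = 7). The log2 fold change was -0.54 (SE 0.24, adjusted p = 0.194 by edgeR), so the difference did not pass the test. It was -0.65 without WT replicate 6 and -0.40 without Nod2-/- replicate 4, the lowest of all 13 mice.

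Slco1a1 (ENSMUSG00000041698.11, chromosome 6, 141907282 to 141946962, minus strand) encodes a carrier of steroid conjugates and bile acids. WT mice had 9805 normalized counts at the lowest, 10783 at the median and 14619 at the highest, and Nod2-/- mice had 2603, 7494 and 10518. Of 7 Nod2-/- mice, 6 were below the lowest WT mouse, and replicates 4 (4049) and 7 (2603) were far below the rest of their group. The SD was 16.8% of the mean in WT mice and 39.6% in Nod2-/- mice. The means were 11554 ± 1944 (SD, n = 6) and 7072 ± 2800 (SD, n = 7), with a log2 fold change of -0.71 (SE 0.26, adjusted p = 0.131 by edgeR). Without Nod2-/- replicate 7 the log2 fold change was -0.56.

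Slco1a4 (ENSMUSG00000030237.14, chromosome 6, 141805440 to 141856199, minus strand) encodes a carrier that also moves digoxin and is known as a gene that activators of CAR and PXR induce. It varied most within the groups of the 9 genes, with an SD of 68.7% of the mean in WT and 116% in Nod2-/- mice. WT replicates 1 and 2 had 896 and 1227 normalized counts, and the other 4 WT mice had 307 to 351. Among the Nod2-/- mice, 5 of 7 were below the lowest WT mouse (133 to 304), replicate 7 had 530 and replicate 6 had 1768, the highest of all 13. The means of 572 ± 393 (SD, n = 6) and 497 ± 575 (SD, n = 7) gave a log2 fold change of -0.21 (SE 0.57, adjusted p = 0.855 by edgeR). Single mice set this value, which was -1.0 without Nod2-/- replicate 6 and 0.17 without WT replicate 2, and neither passed the test.

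Expressed per length, as CPM (read counts scaled to library size) per kilobase of merged exons, Slco1b2 was at 324 ± 73.9 in WT mice (SD, n = 6), Slco1a1 at 132 ± 22.2 and Slco1a4 at 5.38 ± 3.70. The ranges of the 6 WT mice did not overlap between any of these 3 levels. Slco1b2 made up a median of 71.0% of the summed level of the 3 genes in WT and 71.8% in Nod2-/- mice, and Slco1a1 27.7% and 27.8%. The share of Slco1a1 was 26.4% to 36.2% in the WT group and 11.0% to 33.1% in the Nod2-/- group, and that of Slco1a4 was at most 1.95% in WT mice and reached 6.28% in a Nod2-/- mouse. The medians of the shares were thus close between genotypes, while single Nod2-/- mice lay outside the WT range.

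The canalicular pumps export conjugated bilirubin and drug conjugates (Abcc2, the MRP2 protein), phosphatidylcholine (Abcb4), amphipathic drugs (Abcb1a, a P-glycoprotein) and urate, sulfate conjugates and drugs (Abcg2, the BCRP protein). Of these 4 genes, 3 had a log2 fold change below 0 and none passed 5% FDR by edgeR, where 1 (Abcg2) was under an unadjusted p of 0.05. DESeq2 and voomWithQualityWeights called none of the 4 either.

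Abcg2 (ENSMUSG00000029802.13, chromosome 6, 58584523 to 58695676, plus strand) had 1796, 3012 and 3486 normalized counts at the lowest, median and highest in WT mice, and 976, 2201 and 2786 in Nod2-/- mice. The Nod2-/- mice were split, replicates 4, 6 and 7 having 976 to 1183 and the other 4 mice 2201 to 2786, and only the former were below the lowest WT mouse. The means were 2797 ± 611 (SD, n = 6) and 1852 ± 769 (SD, n = 7), with a log2 fold change of -0.59 (SE 0.26, adjusted p = 0.190 by edgeR).

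Abcc2 (ENSMUSG00000025194.5, chromosome 19, 43782192 to 43840740, plus strand) had 4282, 6630 and 8092 normalized counts in WT mice and 3376, 5012 and 6316 in Nod2-/- mice, in the same order. All 7 Nod2-/- mice were below the WT median, and 3 were below the lowest WT mouse. The means of 6529 ± 1321 (SD, n = 6) and 5006 ± 1265 (SD, n = 7) gave a log2 fold change of -0.38 (SE 0.18, adjusted p = 0.217 by edgeR).

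Abcb4 (ENSMUSG00000042476.12, chromosome 5, 8893717 to 8959231, plus strand) was the most even of the 9 genes in WT mice, with 4618, 5225 and 5658 normalized counts at the lowest, median and highest and an SD of 7.18% of the mean. Nod2-/- mice had 2621, 4591 and 5605, and 4 of the 7 were below the lowest WT mouse. The means were 5228 ± 376 (SD, n = 6) and 4290 ± 966 (SD, n = 7), with a log2 fold change of -0.29 (SE 0.14, adjusted p = 0.248 by edgeR). Nod2-/- replicate 4 was the lowest mouse here too, and without it the log2 fold change was -0.19.

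Abcb1a (ENSMUSG00000040584.8, chromosome 5, 8660077 to 8748575, plus strand) was expressed at a low level in these livers, with 63.6, 128 and 249 normalized counts in WT and 111, 157 and 211 in Nod2-/- mice. The range of the Nod2-/- mice lay inside that of the WT mice. Its log2 fold change was 0.09 (SE 0.26, adjusted p = 0.870 by edgeR), and its sign turned when single mice were left out (-0.06 without WT replicate 4). Of the 43-base stretches in Abcb1a transcripts, 24.4% also occur in transcripts of other genes, 984 of them in its neighbour Abcb1b, so that reads of 43 bases could be split between the genes. The share was at most 3.47% for each of the other 8 transporter genes and 0% for Slco1b2 and Abcc3.

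The sinusoidal pumps return conjugates and bile acids to the blood. Abcc3 (ENSMUSG00000020865.16, chromosome 11, 94343295 to 94392997, minus strand), the MRP3 protein's gene, exports glucuronides of bilirubin, steroids and drugs, and it had the smallest p-value of the 9 genes. WT mice had 2284, 3876 and 5110 normalized counts at the lowest, median and highest, and Nod2-/- mice had 985, 1916 and 3201. Of 7 Nod2-/- mice, 6 were below the lowest WT mouse, and the exception was replicate 5. The Nod2-/- mean of 1926 ± 702 (SD, n = 7) was 0.522 times the WT mean of 3692 ± 1131 (SD, n = 6).

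The log2 fold change of Abcc3 was -0.94 (SE 0.25) with an adjusted p of 0.0662 by edgeR, which missed 5% FDR. The adjusted p was 0.00815 by DESeq2 (log2 fold change -0.96) and 0.0355 by voomWithQualityWeights (-0.94), both past the threshold, beside 3.47% and 2.39% of all genes that these methods called lower. With edgeR it was 0.0402 without WT replicate 3 and 0.0417 without Nod2-/- replicate 5, and between 0.0564 and 0.160 without each of the other mice. Without WT replicate 3, 3.37% of all genes tested were called lower, and without Nod2-/- replicate 5, 0.633%. In every one of these fits the log2 fold change was below 0, between -0.82 and -1.11 when 1 mouse was left out. Abcc3 is also among the genes that the study singled out on these same samples, so this is not independent evidence of its direction.

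**Figure D2:**
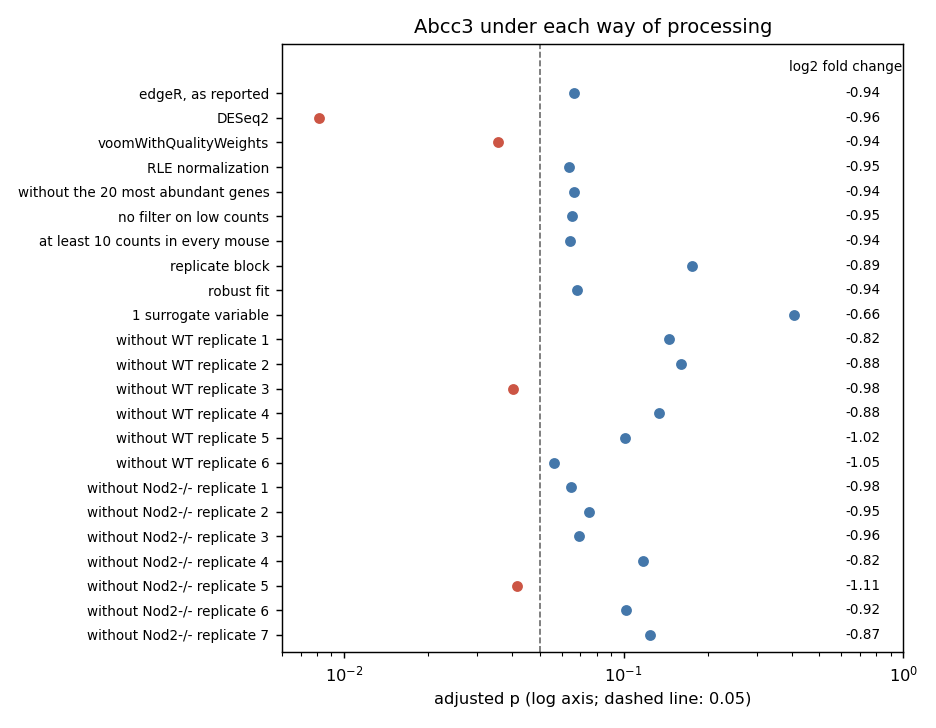
Adjusted p of Abcc3 (log axis, 0.05 dashed) for edgeR as reported and for 22 other ways of processing, with the log2 fold change of Nod2-/- against WT at the right. The red points (DESeq2, voomWithQualityWeights, edgeR without WT replicate 3 and without Nod2-/- replicate 5) lie below 0.05, the blue points lie above it, and each log2 fold change is below 0.

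Abcc4 (ENSMUSG00000032849.14, chromosome 14, 118482692 to 118706219, minus strand), the gene of MRP4, which exports bile acids together with glutathione as well as cyclic nucleotides, was the least expressed of the 9. WT mice had 14.4, 20.3 and 47.0 normalized counts and Nod2-/- mice 15.0, 31.6 and 51.9. WT replicate 3 stood high in its group, the other 5 WT mice having at most 22.1. The means were 23.3 ± 12.1 (SD, n = 6) and 31.6 ± 12.6 (SD, n = 7), with a log2 fold change of 0.44 (SE 0.33, adjusted p = 0.436 by edgeR). It was 0.76 without WT replicate 3 and 0.27 without Nod2-/- replicate 7, and neither passed the test. At 14 to 53 reads per library the counting error of a single mouse is large for this gene.

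Ordered by level in CPM per kilobase in WT mice, Slco1b2 and Slco1a1 were followed by Abcc2 (46.1 ± 9.34, SD, n = 6), Abcc3 (39.1 ± 12), Abcb4 (33.6 ± 2.41), Abcg2 (20.7 ± 4.52), Slco1a4, Abcb1a (1.54 ± 0.745) and Abcc4 (0.220 ± 0.114). Neighbours whose ranges overlapped were Abcc2 with Abcc3 and Abcc3 with Abcb4, and the order of these 3 is not resolved beyond the spread between mice. In Nod2-/- mice the mean levels were 223 ± 69.6 (SD, n = 7) for Slco1b2, 80.8 ± 32.0 for Slco1a1, 35.4 ± 8.94 for Abcc2, 27.6 ± 6.21 for Abcb4 and 20.4 ± 7.43 for Abcc3. Abcg2 (13.7 ± 5.69), Slco1a4 (4.67 ± 5.41), Abcb1a (1.64 ± 0.364) and Abcc4 (0.298 ± 0.119) followed. Abcc3 thus stood below Abcb4 in the mean, in 6 of 7 Nod2-/- mice, and above it in 4 of 6 WT mice. The ranges of all neighbours but Abcb1a and Abcc4 overlapped in the Nod2-/- group. Within single mice, however, Slco1b2 was above Slco1a1 and Abcc3 above Abcg2 in 7 of 7. The other overlapping neighbours kept their order in 5 or 6 of 7 mice.

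**Figure D3:**
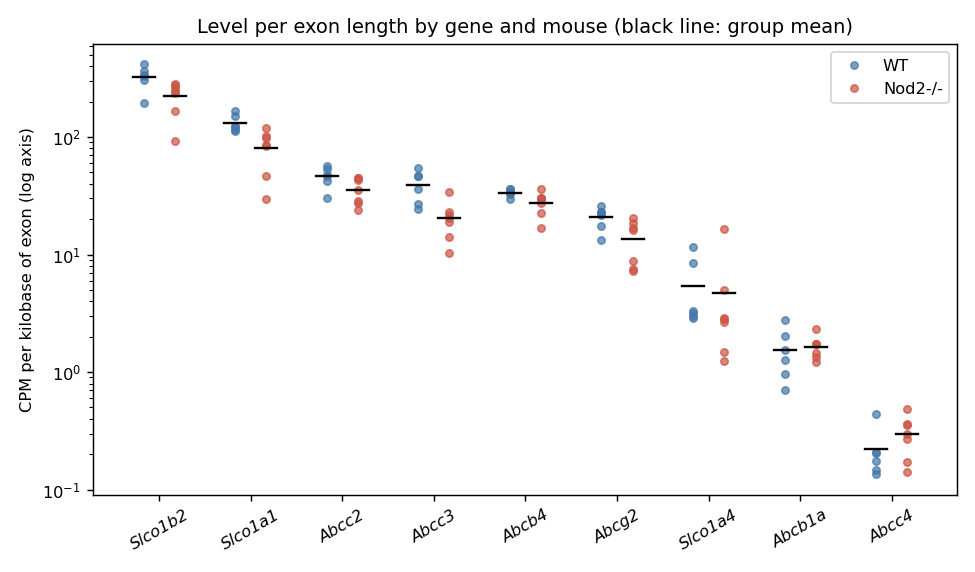
Level of each transporter gene in CPM per kilobase of exon (log axis), 1 point per mouse, WT in blue and Nod2-/- in red, with the group mean as a black line and genes in the order of their WT mean. Levels run from 324 for Slco1b2 to 0.220 for Abcc4 in WT mice, and the red means lie below the blue ones for 7 of the 9 genes.

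Low values were spread over the Nod2-/- mice, with the lowest in a few of them. Nod2-/- replicate 4 was the lowest of all 13 mice for 5 of the 9 genes (Slco1a4, Slco1b2, Abcb4, Abcg2 and Abcc3), and WT replicate 6 was the lowest WT mouse for 6 (Slco1a1, Slco1a4, Slco1b2, Abcc2, Abcg2 and Abcc3). Each Nod2-/- mouse was below the WT mean for 6 to 8 of the 9 genes, and WT mice were for 2 to 8. Hepatocyte markers went both ways in Nod2-/- replicate 4, with 6 of 13 below the lowest WT mouse (Ttr, Apoa2, Apob, Cps1, Cyp2e1 and Glul) and 4 above the highest (Alb, Apoa1, Serpina1c and Hpx). It had 36203 normalized counts of Cyp2e1 (at least 120395 in WT mice), and with 2120666 of Alb its marker sum of 193045 CPM was the highest of the 13 mice (101971 to 136664 in WT mice). The part of these markers in the transporter values was not tested. Without this mouse the log2 fold change of Abcc3 was -0.82 and that of Slco1b2 -0.40.

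**Figure D4:**
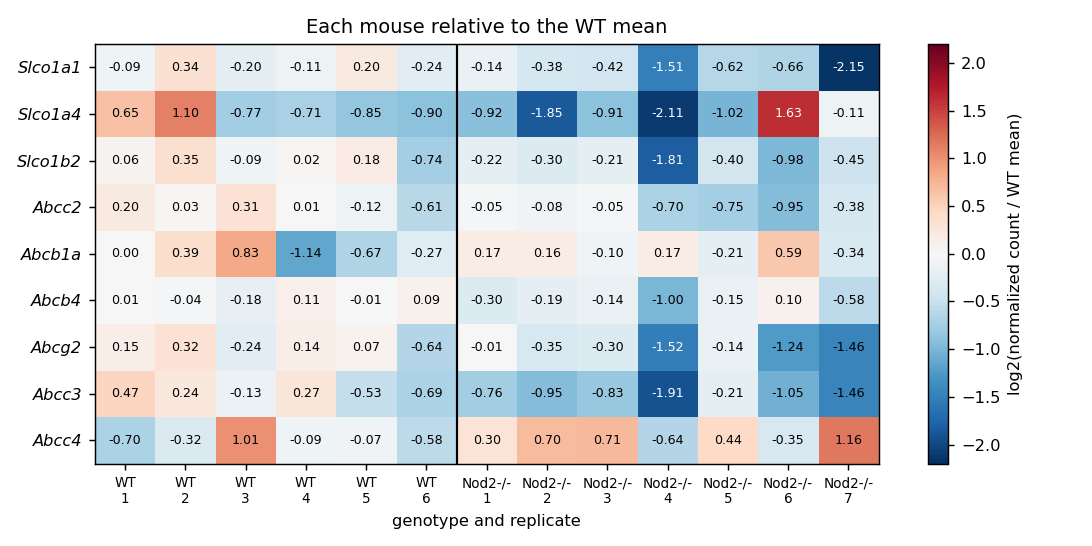
Log2 ratio of each mouse's normalized count to the WT mean, genes in rows and mice in columns (6 WT left of the black line, 7 Nod2-/- right of it), blue below and red above the mean. Nod2-/- replicate 4 is at -1.91 for Abcc3, -1.81 for Slco1b2 and -1.0 for Abcb4, Nod2-/- replicate 7 is at -2.15 for Slco1a1, and Nod2-/- replicate 6 is at 1.63 for Slco1a4.

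Other carriers of the same families were read from lists. None of 14 tested Slc22 genes (of 19 listed), which code for organic cation, anion and carnitine carriers, passed 5% FDR by edgeR, and 1 was under an unadjusted p of 0.05. That gene was Slc22a5, the carnitine carrier, named after its values were seen, with a log2 fold change of -0.75 (SE 0.22, adjusted p = 0.0807 by edgeR). It had 416 to 817 normalized counts in WT and 214 to 624 in Nod2-/- mice, and both DESeq2 and voomWithQualityWeights called it. Of the abundant genes of the list, Slc22a30 had a log2 fold change of -0.43 (SE 0.21) and Slc22a23 of -0.15 (SE 0.10). The median of the 14 was -0.20, beside 0.02 for all genes tested.

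Of 9 other Slco genes, 3 were tested and none passed 5% FDR by edgeR, with 1 higher and 1 lower at an unadjusted p under 0.05. Slco2b1, an uptake carrier of sulfated steroids, had 2936 ± 204 normalized counts in WT (SD, n = 6) and 2168 ± 505 in Nod2-/- mice (SD, n = 7), a log2 fold change of -0.44 (SE 0.15, adjusted p = 0.113 by edgeR). Slco2a1, a prostaglandin carrier, had a log2 fold change of 0.63 (SE 0.23, adjusted p = 0.129 by edgeR) and was called by voomWithQualityWeights, and Slco3a1 had 0.31 (SE 0.19). Slco1a5 and Slco1a6, the remaining Slco1a genes of the list, had at most 2 counts in any mouse and were not tested.

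The list of bile acid and nucleoside carriers also held the organic cation carriers Slc47a1 (log2 fold change -0.12, SE 0.19) and Slc47a2 (not tested). Of its 11 genes 7 were tested, none passed 5% FDR by edgeR, DESeq2 or voomWithQualityWeights, and the median log2 fold change was -0.17. Slc10a1, the sodium-dependent bile acid uptake carrier, was at -0.32 (SE 0.14, adjusted p = 0.188 by edgeR) and was the only one under an unadjusted p of 0.05. Abcb11, the bile salt export pump, was at -0.17 (SE 0.14), and the nucleoside carrier Slc29a1 at -0.26 (SE 0.15). Of 13 other Abcb, Abcc and Abcg genes, 10 were tested, none passed 5% FDR by edgeR, 1 in each direction was under an unadjusted p of 0.05, and the median was 0.19. The most abundant of them were Abcc6 (-0.17, SE 0.14), the sterol exporter subunits Abcg8 (-0.46, SE 0.20) and Abcg5 (-0.14, SE 0.18), and DESeq2 called Abcg3 (1.15, SE 0.37) of the 10.

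**Figure D5:**
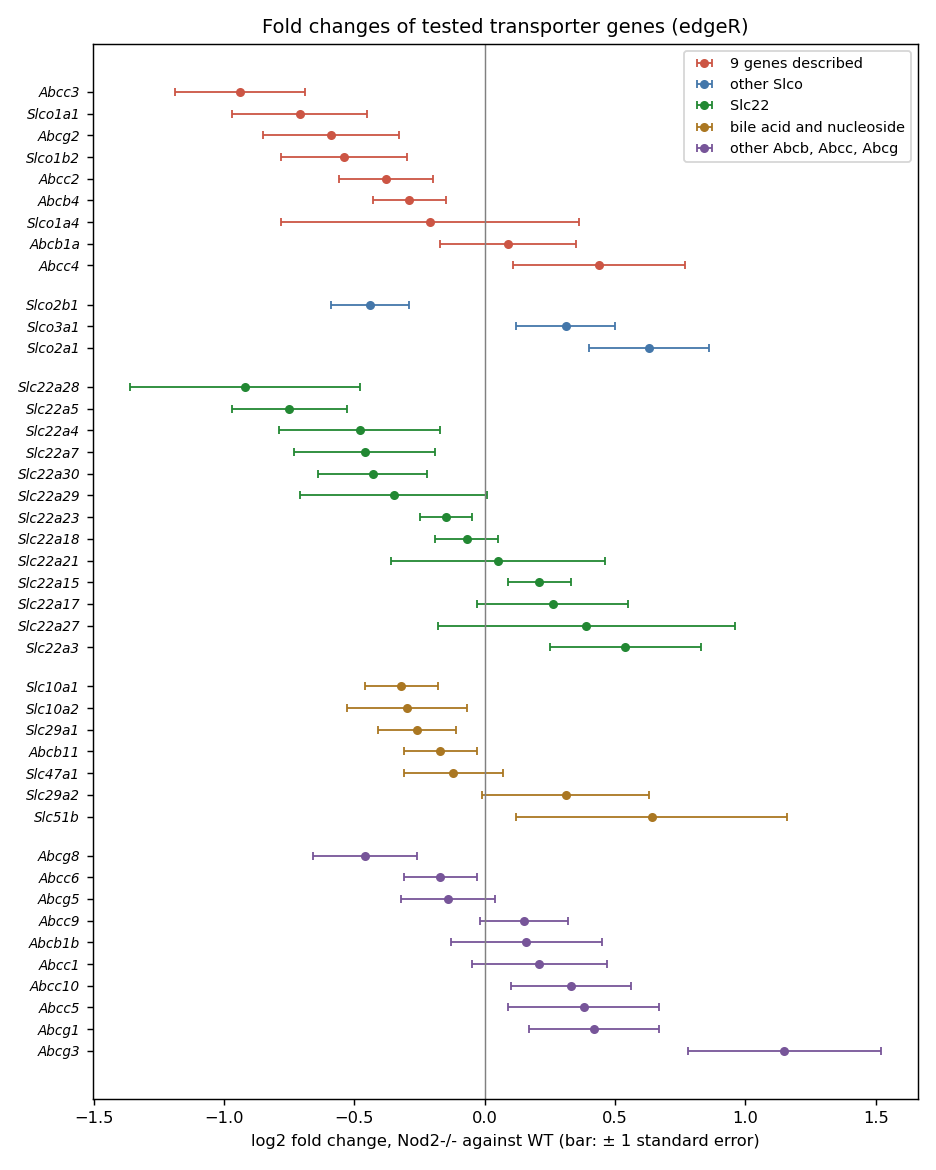
Log2 fold change of Nod2-/- against WT for tested genes of the transporter lists, as a point with a bar of 1 standard error to each side, coloured by list. Abcc3 (-0.94) and Slc22a28 (-0.92) are the lowest and Abcg3 (1.15) is the highest, and no gene shown passed 5% FDR by edgeR.

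Regulators of transporter genes were read in the same fit. All 15 were tested and none passed 5% FDR by edgeR, while 4 were lower and 1 higher at an unadjusted p under 0.05, with a median log2 fold change of -0.10. Hnf4a, a nuclear receptor that maintains hepatocyte gene expression, had 11222 ± 988 normalized counts in WT (SD, n = 6) and 8866 ± 946 in Nod2-/- mice (SD, n = 7), a log2 fold change of -0.34 (SE 0.10, adjusted p = 0.0805 by edgeR), and was called by DESeq2. Rxra, the partner of CAR and PXR, was at -0.06 (SE 0.08), and Nr1i3, the gene of CAR, at -0.52 (SE 0.33). Nr1i2, the gene of PXR, named after its values were seen, was at -0.61 (SE 0.17, adjusted p = 0.0712 by edgeR) and was called by DESeq2 and by voomWithQualityWeights.

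Of 8 known targets of CAR and PXR, 7 were tested, none passed 5% FDR by edgeR, 3 were lower at an unadjusted p under 0.05, and the median log2 fold change was -0.84. Por, the reductase that supplies electrons to cytochromes P450, was at -0.84 (SE 0.22, adjusted p = 0.0659 by edgeR) and was called by DESeq2 and voomWithQualityWeights. Cyp2c29 was at -1.02 (SE 0.51) and Cyp3a11, the main drug-metabolizing cytochrome of its family, at -0.44 (SE 0.51). Cyp2b10, the classical CAR target, named after its values were seen, was at -1.78 (SE 0.69, adjusted p = 0.148 by edgeR). Of 7 Nod2-/- mice, 6 were below the lowest WT mouse (116 normalized counts), and the exception, replicate 5, had 331. Among WT mice, Cyp2b10 was highest in replicates 1 and 2, with 368 and 590 normalized counts, the same WT mice that were highest for Slco1a4. It was called by voomWithQualityWeights, and Cyp2c50 (-0.99, SE 0.34) by DESeq2. In Nod2-/- replicate 6, the mouse with 1768 normalized counts of Slco1a4, these targets went both ways. Cyp2b10 had 13.7 and Cyp2c29 4442 (Nod2-/- medians 57.5 and 18521), but Cyp3a11 had 31610, the highest of the group (median 13965). Among WT mice Cyp3a11 was highest in replicate 2 (41884). Whether Slco1a4 varies with these targets was not tested.

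For targets of the aryl hydrocarbon receptor, 5 of 6 were tested, with a median log2 fold change of -0.14, none past 5% FDR by edgeR, DESeq2 or voomWithQualityWeights, and 1 in each direction under an unadjusted p of 0.05. Cyp1a2 was at -0.95 (SE 0.41), Tiparp at -0.14 (SE 0.13) and Nqo1 at 0.10 (SE 0.24). For targets of NRF2, the transcription factor of the oxidative stress response, 11 of 13 were tested, with a median of -0.15, none past 5% FDR by these 3 methods and 0 under an unadjusted p of 0.05. Gstm1, Gclc and Gclm, its most abundant genes, were at -0.27 (SE 0.17), -0.15 (SE 0.24) and -0.17 (SE 0.10).

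Slco1a1 was also read beside genes that are known to be higher in one sex. Of 12 male-biased liver genes, all were tested, none passed 5% FDR by edgeR, DESeq2 or voomWithQualityWeights, 3 were lower at an unadjusted p under 0.05, and the median log2 fold change was -0.53. Selenbp2 was at -0.48 (SE 0.24), Cyp2d9 at -0.57 (SE 0.21) and Mup20 at 0.43 (SE 0.57). Nod2-/- replicate 7, the lowest mouse for Slco1a1, also had the lowest sum of the male-biased genes, 2882 CPM, where WT mice had 6616 to 11168. Of 15 female-biased genes, 8 were tested, with a median of 0.12, none past 5% FDR by edgeR, and 2 higher and 1 lower at an unadjusted p under 0.05. Their most abundant genes Cyp2a4, Fmo2 and Cyp2b9 were at 1.12 (SE 1.0), 0.01 (SE 0.30) and 0.23 (SE 0.58).

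Markers of other cells differed between mice beside these results. Summed neutrophil markers were at 4.29 to 11.5 CPM in WT and 7.06 to 1053 in Nod2-/- mice, highest in replicate 7, with 5 of 5 tested markers (of 12) above 0 in log2 fold change. Kupffer cell markers were at 161 to 278 in WT and 195 to 595 in Nod2-/- mice (8 of 9 above 0), and markers of liver tumors at 15.9 to 380 and 45.6 to 498 (8 of 8 tested above 0), the WT maximum being replicate 3. Cholangiocyte and progenitor markers were at 47.7 to 228 in WT and 120 to 416 in Nod2-/- mice, highest in replicate 4, and Sox9, a progenitor transcription factor, rose (log2 fold change 1.29, SE 0.25, adjusted p = 0.0324 by edgeR). Lung epithelium markers were at 14.2 to 201 in WT and 3.05 to 33.0 in Nod2-/- mice, with 5 of 5 tested markers (of 10) below 0. Of all 13545 genes tested, 7088 were above 0 and 6457 below. A marker with few counts can enter the test through the group where it is higher. The shared direction of tested markers in a list is therefore partly set by the filter and is not evidence of a shift. Endothelial markers were at 296 to 396 and 313 to 373, and stellate cell markers at 260 to 488 and 296 to 380, where Rgs5, a pericyte gene, rose (0.55, SE 0.13, adjusted p = 0.0490 by edgeR). Besides Sox9 and Rgs5 no marker of these lists passed 5% FDR by edgeR, and none was at 0 in all 13 mice. DESeq2 also called the neutrophil genes Camp, Mpo, Ngp, Prtn3, S100a8 and S100a9, the lung genes Scgb1a1, Sftpa1, Sftpb, Sftpc and Slc34a2, and Cd24a and Pecam1, and voomWithQualityWeights also called H19, Golm1, Tff3, Spp1, Pecam1 and Cdh5. The edgeR call of Rgs5 was lost in 9 of the 13 fits that left out 1 mouse, with RLE normalization and without the filter on low counts, and that of Sox9 in 7 of the 13, and both were lost with the replicate block and with 1 surrogate variable. Their part in the transporter values was not tested.

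For the 3 transporter genes with the smallest p-values, the tested genes with the most similar pattern over the 13 mice were sought by Pearson's r of log2 CPM. They were Vwa8, Oma1 and Aldh7a1 for Abcc3 (r = 0.95 each, 0.89 to 0.90 within genotypes), Slc22a28, Zcwpw1 and March8 for Slco1a1 (0.96 each, 0.94 to 0.95 within genotypes), and Gm47789, Gna14 and Slc22a30 for Abcg2 (0.97 each, 0.96 to 0.97 within genotypes). Among the 9 genes themselves, Abcg2 was at r = 0.87 with Slco1a1, 0.86 with Abcc3 and 0.85 with Slco1b2 (0.81, 0.8 and 0.78 within genotypes). Abcc3 was at -0.17 with Abcc4 and -0.14 with Abcb1a, but at 0.15 and 0.01 within genotypes. These r values were picked as the highest of 13545 genes or describe libraries that share their normalization, and they are given as a description without a test. Slc22a28, a member of the organic anion carrier family, ranged from 254 to 423 normalized counts in the WT group and from 21.6 to 355 in the Nod2-/- group, lowest in replicate 7, the mouse that was lowest for Slco1a1 as well.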

How the data were processed

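Liver RNA of 6 WT and 7 Nod2-/- mice was measured, 1 library per mouse. Per the labels, libraries were made with a stranded mRNA kit and read as pairs of 43 bases. Trimming used Trimmomatic 0.33 and mapping TopHat2 2.1.1 on GRCm38. The authors deposited raw counts, whole numbers per gene and mouse that had not been normalized. How reads were assigned to genes (program, strand, reads with several matches) is not given in the sources used here, so overlapping genes and paralogs are uncertain. The submitters' processing notes also name DESeq2. A single entry lacked an identifier and was dropped. Groups come from the labels' genotype, and replicates are separate mice.

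The main test was edgeR 4.0.16 under R 4.3.3 (filterByExpr, TMM, glmQLFit, glmQLFTest, two-sided, no covariate), run on 13545 genes that held 99.9% of the counts, with Benjamini-Hochberg adjustment over all of them at 5% FDR. The SE is the log2 fold change divided by the square root of F. Positions and exon lengths are from GENCODE M21 on GRCm38, promoter windows from RefSeq on GRCm38.p6. Libraries of a genotype all differed by more than sampling noise (chi-square over its degrees of freedom was 10.7 to 160 in 36 pairs), and each counted as 1 sample.

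Alternatives were DESeq2 1.42.0, voomWithQualityWeights of limma 3.58.1, RLE normalization, TMM without the 20 most abundant genes, testing every gene with a count, testing only genes with 10 or more counts in each mouse, a replicate block, robust estimation, sva 3.50.0 with 1 surrogate variable, and leaving out each mouse. The edgeR, DESeq2 and voomWithQualityWeights fits were tested on simulated counts with 200 changed genes. Every simulated gene had the same relative spread between mice, and no mouse was an outlier. The simulation therefore does not show how the fits behave with outlier mice such as those described here. Members and gene lists were chosen with earlier results of these data known. Named genes are the 9 transporters, list genes past 5% FDR, the 3 most abundant of a list (for markers of other cells, sums are given), and the 3 genes most like each of the 3 transporters with the smallest p. Values of a few of these genes are left out here.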

Additional observations from a re-analysis of the deposited data

Results flagged for a closer look

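Within each genotype, the highest and lowest mouse of each of the 9 transporter genes was compared with its group by Dixon's criterion, which chance alone meets in about 1 of 20 groups. Of 18 groups, 2 met it. Nod2-/- replicate 6 had 1768 normalized counts of Slco1a4, and the nearest mouse of its group had 530 (gap over range 0.757, critical value 0.568). WT replicate 3 had 47.0 normalized counts of Abcc4, and the nearest WT mouse had 22.1 (gap over range 0.763, critical value 0.625).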

How the results depend on the processing

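Of 198 log2 fold changes (9 transporter genes under 22 alternatives), 189 kept their direction and their side of the threshold, 4 passed it (Abcc3 by DESeq2, by voomWithQualityWeights and without WT replicate 3 or Nod2-/- replicate 5) and 5 turned sign, none of them past the threshold. The last were Slco1a4 (0.51 with 1 surrogate variable, 0.17 without WT replicate 2) and Abcb1a (-0.06 without WT replicate 4, -0.02 without WT replicate 5, -0.01 without Nod2-/- replicate 6). Leaving out 1 mouse moved Slco1a4 to between -1.0 (without Nod2-/- replicate 6) and 0.17, and Abcb1a to between -0.06 and 0.32 (without WT replicate 3). With 1 surrogate variable the log2 fold change of Abcc3 was -0.66, of Slco1a1 -0.46, of Slco1b2 -0.34, of Abcg2 -0.33, of Abcb4 -0.13 and of Abcc4 0.09. That of Abcc2 was -0.43, where the main fit gave -0.38. The number of transporter genes past 5% FDR was 0 by edgeR, 1 by DESeq2, 1 by voomWithQualityWeights and 0 to 1 when 1 mouse was left out. Over all genes the count of 157 became 1154 by DESeq2, 843 by voomWithQualityWeights, 33 with 1 surrogate variable and 41 to 1156 when 1 mouse was left out, the maximum being without WT replicate 3. Over the lists of other genes, the count of 2 (Sox9 and Rgs5) became 24 by DESeq2, 14 by voomWithQualityWeights, 1 with RLE normalization, 0 with 1 surrogate variable and 0 to 21 when 1 mouse was left out. The causes of these differences were not tested.

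With the replicate block, 35 genes in all, 0 of the lists and 0 transporter genes passed 5% FDR. Only the Nod2-/- group had a replicate 7, so in this fit that mouse added nothing to the genotype estimate. Deviations from the group means correlated between mice of the same replicate number at 0.041, -0.151, -0.086, -0.302, -0.039 and 0.304 for replicates 1 to 6. These values had both signs and were not compared with mice of unlike number, so they do not settle whether the numbers pair mice.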
